A study of Mus musculus with 6 samples.

Results

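The 95 potassium channel genes described here were all genes of the deposited comparison table whose symbol begins with Kcn, followed by a subfamily letter. They had 100 transcript clusters (the array's probe sets, normally 1 for each gene) among 34472 clusters in that table, which carry 27364 symbols. The set was defined by name, with no filter on measured values, though it was chosen with earlier results of these data known. Where a symbol had 2 clusters, as 5 did, the cluster with the higher mean over the 6 arrays stood for it.

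Ribosome-bound mRNA was compared between mice injected with LPS (lipopolysaccharide, a bacterial cell-wall component that triggers innate immune responses) at 5 mg/kg for 24 h and mice given saline for the same time. All mice, controls included, carried Flag/EGFP-RPL10a, a tagged ribosomal protein under the promoter of CD11b, an integrin of myeloid cells such as microglia. Tagged ribosomes were pulled down by translating ribosome affinity purification (TRAP), and each of 3 LPS and 3 saline arrays held RNA pooled from 5 animals, 2 to 3 months old, with both sexes in equal ratio. No label names the tissue, and input or unbound RNA was not analysed here.

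Potassium channels let potassium ions flow through the membrane, which sets the resting potential and ends action potentials. Voltage-gated channels open on depolarisation, inward rectifiers hold the membrane near its resting potential, and 2-pore-domain channels carry background current, while silent and accessory subunits conduct nothing alone and alter the channels they join. In microglia and macrophages, potassium efflux is known to accompany inflammasome activation, and in astrocytes inward rectifiers take up potassium released by neurons.

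Promoters are shown for the gene with the greatest positive difference and for a gene whose chosen cluster was lower in every LPS array. They show what sequence lies at the starts of these genes. Kcnv1, which had the lowest p among lower members in the limma test below, has no promoter entry, so Kcna6, the next, is shown. Kcng4 (chr8:119635631-119635930, minus strand) and Kcna6 (chr6:126740625-126740924, minus strand) are given 5′ to 3′ from RefSeq (GRCm38.p6), with the 50 bases from the annotated start in capitals and the 250 bases before it in lower case.
Kcng4: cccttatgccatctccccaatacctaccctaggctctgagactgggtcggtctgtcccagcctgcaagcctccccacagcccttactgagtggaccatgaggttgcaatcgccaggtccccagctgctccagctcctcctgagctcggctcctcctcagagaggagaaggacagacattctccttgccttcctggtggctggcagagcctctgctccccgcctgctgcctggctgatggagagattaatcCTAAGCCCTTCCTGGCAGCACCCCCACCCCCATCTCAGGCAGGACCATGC
Kcna6: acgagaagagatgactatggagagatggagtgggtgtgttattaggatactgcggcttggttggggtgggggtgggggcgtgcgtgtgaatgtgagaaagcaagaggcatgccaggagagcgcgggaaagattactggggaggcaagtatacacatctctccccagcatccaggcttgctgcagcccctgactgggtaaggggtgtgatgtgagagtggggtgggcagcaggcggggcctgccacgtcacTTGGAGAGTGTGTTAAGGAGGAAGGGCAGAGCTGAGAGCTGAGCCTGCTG
The Kcng4 window held 4 CpG dinucleotides and the Kcna6 window 8. Neither held TATAAA (the TATA box), GAAANNGAAA (the core of the interferon-stimulated response element) or GGGANTTTCC (a kappaB site), read on both strands. Across 70 members with a RefSeq entry, which have 95 annotated starts, TATAAA lay in 5 windows (5.26%, against 13.6% of all 32851 windows), GAAANNGAAA in 7 (7.37%, against 3.44%) and GGGANTTTCC in 0 (against 0.411%). The 7 windows with GAAANNGAAA belong to 5 members. A match describes letters in the window and not a bound site.

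No potassium channel gene passed the test after LPS. With limma and Benjamini-Hochberg adjustment over all clusters, 0 of 95 members had an adjusted p below 0.05, against 1 of 34472 clusters (0.00290%). The lowest adjusted p of a member in this fit was 0.9999. At an unadjusted limma p below 0.05 there was 1 member with a higher value after LPS, Kcng4 (1.49% of all clusters met this), and 1 with a lower value, Kcnv1 (0.772% of all clusters). With the array number as a replicate block, 1 member was higher (3.32% of all clusters) and 3 were lower (2.52%), Kcna6 and Kcnmb1 beside Kcnv1. In that fit the unadjusted limma p was 0.0052 for Kcng4 and 0.0060 for Kcnv1, and the adjusted p was 0.59 for both. Without LPS 2, 0 members were lower at that level (0.403% of all clusters). By the test in the authors' deposited table, 9 members had a p below 0.05 (3.13% of all clusters did), 5 of them higher and 4 lower, and the lowest false discovery rate of a member was 0.9999. The word difference below means LPS minus saline in log2 units, where 1 unit is a 2-fold change.

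Differences of the members were small in both directions. They were positive in 46 and negative in 49, from -0.54 to 0.63, with a median of -0.02 (-0.002 over all clusters tested). The median absolute difference was 0.115, against 0.110 over all clusters. In 93 of 95 members the 95% interval from limma stayed within a 2-fold change in either direction, the exceptions being Kcng4 (0.18 to 1.09) and Kcnmb1 (-1.14 to 0.32). In 64 members (67.4%) it stayed within 1.5-fold, which held for 50.9% of all clusters. Of the 74 members with a mean above the median of all clusters, it did so in 50 (67.6%). Over all clusters of that brightness the share was 54.9%.

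In 7 members all 3 LPS values exceeded all 3 saline values (7.37%), a pattern seen in 3.61% of all clusters. All 3 lay below in 8 members (8.42%), against 3.10% of all clusters. Of members, 74 had a mean above the median of all clusters, and among these 6 lay above (8.11%) and 8 below (10.8%). The same shares over all clusters of that brightness were 3.37% and 3.65%. These counts moved with scaling and with single arrays. After repeated quantile normalisation 8 members lay above (3.73% of all clusters) and 5 below (3.86%), against 7 and 8 as deposited. After each array was centred on its median, 5 lay above (2.92%) and 8 below (5.15%). With saline 3 left out 16 lay above (12.9% of all clusters), with LPS 1 or LPS 2 left out 11 did (8.21% and 7.91%), and with LPS 3 left out 17 lay below (12.4%). With saline 2 left out 13 lay below (6.47%).

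**Figure D1:**
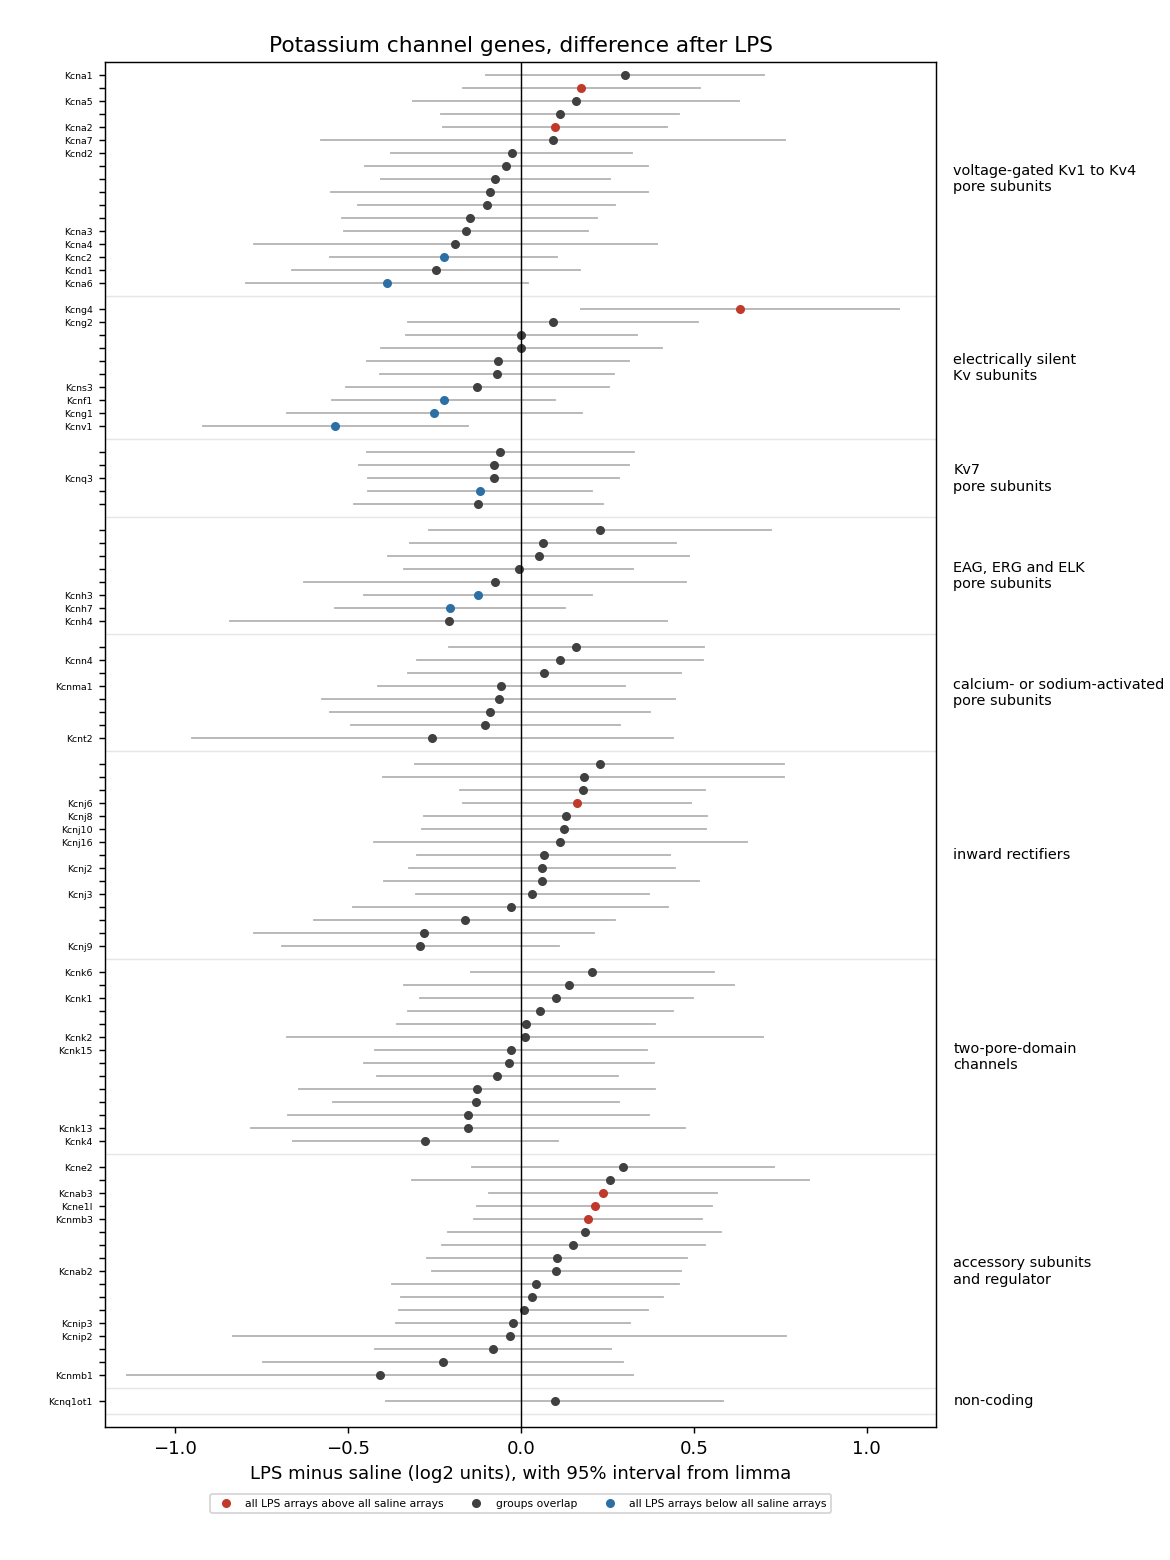
Difference between LPS and saline (log2 units, horizontal axis) for each of 95 potassium channel genes, grouped by channel class, with 95% intervals from limma. Red points mark the 7 genes with all LPS arrays above all saline arrays, blue points the 8 genes with all LPS arrays below, and only the intervals of Kcng4 and Kcnv1 leave out 0. Names stand beside the genes described in the text.

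The silent subunits, which form channels only together with Kv2 partners, held both members with an unadjusted p below 0.05 in the fit without the block. Kcng4 (Kv6.4) had 7.74, 7.06 and 7.40 log2 units in LPS arrays 1 to 3 and 6.74, 6.66 and 6.89 in saline arrays 1 to 3. Its lowest LPS array stood above its highest saline array, and LPS 1 was highest. The means were 7.40 ± 0.34 after LPS and 6.76 ± 0.12 after saline (SD, n = 3 each), a difference of 0.63 ± 0.20 (SE), or 1.55-fold. The unadjusted limma p was 0.013 and the adjusted p 0.9999, so the gene did not pass the test.

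Kcnv1 (Kv8.1) went the other way, with 8.29, 7.95 and 8.10 in the LPS arrays and 8.61, 8.50 and 8.82 in the saline arrays. Every LPS array was below every saline array. The means were 8.11 ± 0.17 after LPS and 8.65 ± 0.16 after saline (SD, n = 3 each). The difference was -0.54 ± 0.17 (SE), with an interval of -0.92 to -0.15 and a ratio of 0.690, at an unadjusted limma p of 0.012. Leaving out 1 array at a time gave -0.62 to -0.45 for Kcnv1 and 0.46 to 0.81 for Kcng4.

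Of 10 silent subunits, 4 had positive and 6 negative differences, with a median of -0.07, and after centring the split was 2 and 8. Besides Kcnv1, Kcnf1 and Kcng1 were lower in every LPS array, which made 3 of 10 (30%, against 3.10% of all clusters). Kcnf1 (Kv5.1) had 8.20, 8.11 and 8.17 after LPS and 8.44, 8.37 and 8.35 after saline, a difference of -0.22 ± 0.14. Kcng1 (Kv6.1) had 7.00, 6.97 and 7.00 after LPS and 7.06, 7.05 and 7.60 after saline. Its difference of -0.25 ± 0.19 thus rests mostly on saline 3, and LPS 3 and saline 2 lay close together. The other 6 had differences from -0.12 (Kcns3) to 0.09 (Kcng2), with overlapping groups.

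Among the 17 pore subunits of the Kv1 to Kv4 families, which carry the delayed-rectifier and A-type currents of neurons, 6 had positive and 11 negative differences (median -0.07), and 7 and 10 after quantile normalisation. Kcna6 (Kv1.6) had 8.01, 7.50 and 7.76 after LPS and 8.23, 8.17 and 8.02 after saline, with LPS 2 lowest. Its highest LPS array lay just under its lowest saline array, and the difference was -0.39 ± 0.18. The unadjusted limma p was 0.060 for Kcna6 and the adjusted p 0.9999. The other cluster of Kcna6, which matched no RefSeq gene, differed by only -0.04 ± 0.20. Kcnc2 (Kv3.2), a fast-gating channel of fast-spiking neurons, had 8.01, 8.05 and 8.04 after LPS and 8.21, 8.36 and 8.20 after saline. These groups were apart although the difference was only -0.22 ± 0.14.

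On the higher side, Kcna2 (Kv1.2), an axonal channel, had 9.23, 9.26 and 9.31 after LPS and 9.10, 9.18 and 9.22 after saline. Every LPS array of Kcna2 was above every saline array, by a narrow margin (difference 0.10 ± 0.14). Kcna1 (Kv1.1), which assembles with Kv1.2 in axons, had 9.18, 9.47 and 9.70 after LPS and 9.23, 9.12 and 9.10 after saline. Its difference was 0.30 ± 0.18 (0.18 without LPS 3), and LPS 1 fell within the saline values.

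Kcnd1 (Kv4.1) differed by -0.25 ± 0.18 with overlapping groups (-0.12 without LPS 1), and Kcnd2 (Kv4.2), the main A-type channel of dendrites, by -0.03 ± 0.15. Kcna4 was represented by a cluster that matched no RefSeq gene and is also described as a predicted gene (difference -0.19). The cluster of Kcna4 that matched RefSeq had 7.39, 7.28 and 6.98 after LPS and 7.57, 7.75 and 7.42 after saline. Here every LPS array was below every saline array, with little room between LPS 1 and saline 3 (difference -0.37). At this cluster the unadjusted limma p was 0.069 and the adjusted p 0.9999.

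All 5 Kv7 subunits had negative differences, from -0.12 to -0.06, none of which passed the test. They stayed negative after quantile normalisation, after centring of the arrays and without the arrays numbered 3. Single arrays did change the sign, as Kcnq5 turned positive without LPS 1 or without saline 3, and Kcnq1 without saline 3. Kcnq3, a subunit of the neuronal M-current, had a difference of -0.08 ± 0.16 with overlapping groups. Of 8 EAG, ERG and ELK subunits 3 had positive and 5 negative differences, a split that became 4 and 4 after quantile normalisation, and 1 and 7 without both arrays numbered 3. Kcnh7 (ERG3) had 9.13, 9.13 and 9.23 after LPS and 9.26, 9.38 and 9.45 after saline, a difference of -0.20 ± 0.14. Kcnh3 (ELK2) had 9.54, 9.45 and 9.49 after LPS and 9.72, 9.56 and 9.58 after saline, a difference of -0.12 ± 0.14. In both, every LPS array was below every saline array, with a narrow gap between the nearest arrays.

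**Figure D2:**
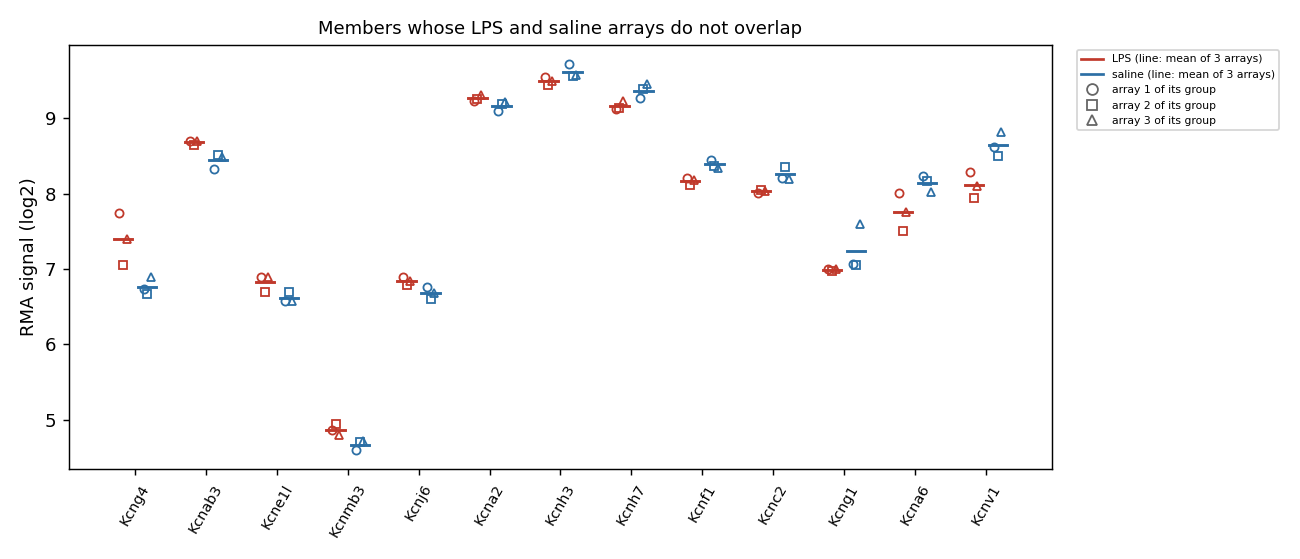
Log2 signal of each array (vertical axis) for 13 of the 15 members whose LPS and saline arrays did not overlap, with LPS arrays left of saline arrays, a line at each group mean, and circles, squares and triangles for arrays 1, 2 and 3. Kcng4 and Kcnv1 show the widest separation, and in the others the group means differ by 0.39 log2 units or less.

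Of 17 accessory subunits and regulators, 12 had positive and 5 negative differences (median 0.10). In 3 of them every LPS array was above every saline array (17.6%, against 3.61% of all clusters). After centring, the split was 10 and 7 with a median of 0.07. Kcnab3, a cytoplasmic beta subunit of Kv1 channels, had 8.69, 8.64 and 8.70 after LPS and 8.33, 8.51 and 8.48 after saline (difference 0.24 ± 0.14). Kcne1l, which the deposited table describes as an Isk-related pseudogene, had 6.89, 6.70 and 6.89 after LPS and 6.57, 6.69 and 6.57 after saline (difference 0.21 ± 0.15). For Kcne1l LPS 2 and saline 2 were nearly equal. Kcnmb3, a beta subunit of the large-conductance calcium-activated (BK) channel, had 4.86, 4.95 and 4.79 after LPS and 4.60, 4.70 and 4.71 after saline (difference 0.20 ± 0.14). Its values lie below the array medians of all clusters, where RMA compresses differences.

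Kcne2 had 4.97, 5.05 and 5.33 after LPS and 4.96, 4.51 and 4.99 after saline. That difference was 0.30 ± 0.19, with LPS 1 inside the saline range, and it was 0.14 without saline 2. The values of Kcne2 also lie below the array medians of all clusters. Kcnab2 differed by 0.10 ± 0.16 and Kcnip3, a calcium-binding partner of Kv4 channels, by -0.02 ± 0.15. The interval reaching furthest below 0 belonged to Kcnmb1, the BK beta subunit of smooth muscle, with 4.39, 4.42 and 4.94 after LPS and 4.80, 4.46 and 5.71 after saline (difference -0.41 ± 0.32). Kcnmb1 was highest in array 3 of both groups, and apart from saline 3 its values also lie below the array medians.

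The members with a known role in microglia did not pass the test, and in all 7 the groups overlapped. Kcnk6 (TWIK-2), a background channel described as a potassium efflux path for the inflammasome in macrophages, had 6.50, 6.69 and 6.70 after LPS and 6.34, 6.36 and 6.57 after saline. Its difference was 0.21 ± 0.15, and only LPS 1 lay within the saline values. Kcna3 (Kv1.3), an outward channel of activated microglia and T cells, had 8.39, 8.07 and 8.19 after LPS and 8.34, 8.39 and 8.39 after saline. For Kcna3 LPS 1 matched the saline arrays while LPS 2 and 3 lay below them, and the difference was -0.16 ± 0.15, with an interval of -0.51 to 0.19. Without LPS 2 it was -0.083.

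Kcnk13 (THIK-1), the resting background channel of microglia, had 5.41, 5.58 and 6.17 after LPS and 5.78, 5.49 and 6.34 after saline (difference -0.15 ± 0.27, interval -0.78 to 0.48). Kcnk13 was highest in array 3 of each group, and that spread exceeds the difference between groups. Kcnj2 (Kir2.1), the inward rectifier of unstimulated microglia, had 6.47, 6.42 and 6.71 after LPS and 6.50, 6.28 and 6.63 after saline. The difference was 0.06 ± 0.17, with an interval of -0.32 to 0.45.

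Kcna5 (Kv1.5) differed by 0.16 ± 0.21 (interval -0.31 to 0.63), and by 0.014 without LPS 3 and 0.32 without saline 3. Kcnn4 (KCa3.1), a calcium-activated channel of myeloid cells, differed by 0.11 ± 0.18 (interval -0.30 to 0.53). Kcnn4 had 4.68, 4.54 and 5.04 after LPS and 4.78, 4.53 and 4.61 after saline, so only LPS 3 stood above the saline arrays. The values of Kcnn4 lie below the array medians of all clusters, where RMA compresses differences. Kcnma1, the BK pore, differed by -0.06 ± 0.16. Without both arrays numbered 3, the Kcnn4 difference was -0.05.

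**Figure D3:**
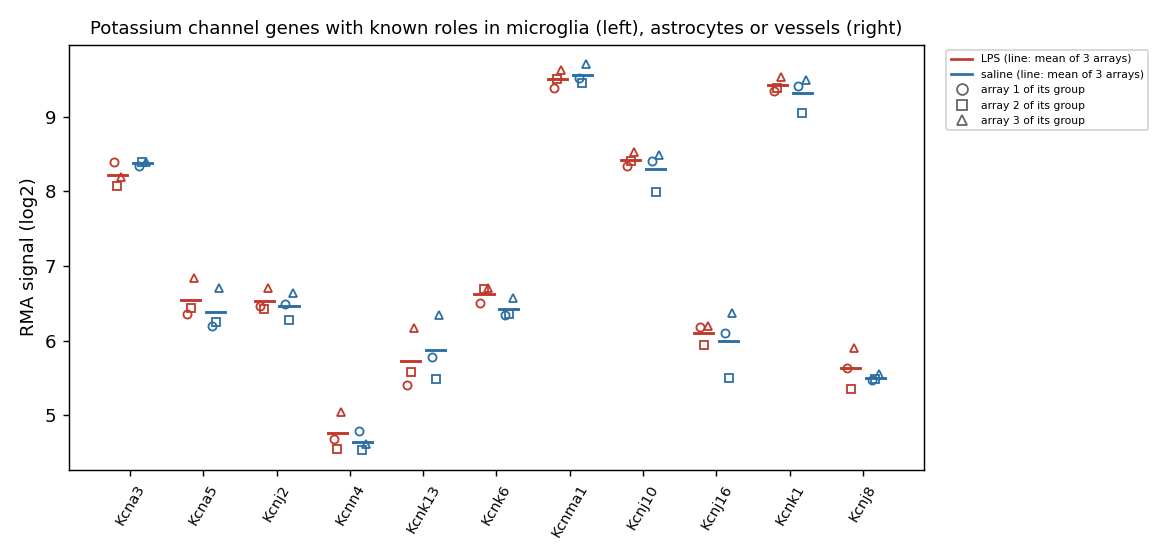
Log2 signal of each array (vertical axis) for 7 members with known roles in microglia and 4 with known roles in astrocytes or vessels, with LPS arrays left of saline arrays, a line at each group mean, and circles, squares and triangles for arrays 1, 2 and 3. In all 11 genes the LPS and saline arrays overlap.

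Of 15 inward rectifiers 11 had positive and 4 negative differences, with a median of 0.07, and the split was 10 and 5 after centring. Kcnj10 (Kir4.1), the potassium uptake channel of astrocytes, had 8.34, 8.40 and 8.53 after LPS and 8.41, 7.99 and 8.49 after saline. Saline 2 was low, and the difference was 0.13 ± 0.18. Its partner Kcnj16 (Kir5.1) had 6.17, 5.93 and 6.20 after LPS and 6.10, 5.49 and 6.37 after saline, again lowest in saline 2 (difference 0.11 ± 0.23). Kcnk1 (TWIK-1) differed by 0.10 ± 0.17 and was also lowest in saline 2. Without saline 2 the differences were -0.03 for Kcnj10, -0.13 for Kcnj16 and -0.03 for Kcnk1.

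Kcnj8 (Kir6.1), the pore of the vascular potassium channel gated by ATP, differed by 0.13 ± 0.18. Kcnj6 (GIRK2) had 6.90, 6.78 and 6.84 after LPS and 6.76, 6.60 and 6.68 after saline, and was the only inward rectifier with every LPS array above every saline array (difference 0.16 ± 0.14). Kcnj9 (GIRK3), which joins GIRK2 in neuronal channels opened by G proteins, had 8.86, 8.37 and 8.70 after LPS and 8.99, 8.83 and 8.98 after saline. That difference was -0.29 ± 0.17, and LPS 1 lay within the saline values. Without LPS 2 it was -0.15.

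The 14 two-pore-domain genes had 6 positive and 8 negative differences, and the groups overlapped in each of them. After quantile normalisation the split was 7 and 7, and after centring 4 and 10. Kcnk4 (TRAAK), a mechanically gated background channel, had 7.75, 7.66 and 7.98 after LPS and 8.08, 7.91 and 8.23 after saline (difference -0.28 ± 0.17). The cluster chosen for Kcnk15 is also described as the gene for 14-3-3 beta and its accessions matched only Ywhab, so its difference of -0.03 says little of Kcnk15. The other cluster of Kcnk15 differed by 0.04. The 8 calcium- or sodium-activated pore subunits had 3 positive and 5 negative differences, all with overlapping groups, and the non-coding Kcnq1ot1 differed by 0.10 (0.04 by its other cluster, and -0.13 without both arrays numbered 3). The clusters of Kcnj3 differed in sign, 0.03 ± 0.15 for the chosen one and -0.10 ± 0.25 for the other.

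Partners of the channels and other potassium transporters were read in the same way. Of 30 listed genes 29 were measured, 0 passed the test, 14 had positive and 15 negative differences, and the median was -0.03. Lrrc55, an auxiliary gamma subunit of BK channels, had 6.49, 6.48 and 6.53 after LPS and 6.97, 6.74 and 7.35 after saline. The LPS arrays lay close together and below all saline arrays (difference -0.52 ± 0.19, interval -0.94 to -0.09). For Lrrc55 the unadjusted limma p was 0.022 and the adjusted p 0.9999. Lrrc26, another BK gamma subunit, had 5.72, 5.96 and 5.74 after LPS and 5.34, 5.56 and 5.51 after saline (difference 0.34 ± 0.16). For Lrrc26 all LPS arrays were above all saline arrays, and the same held for Atp1b2, a sodium pump subunit (difference 0.23 ± 0.15). Of the 29 genes, 3 lay above in this way (10.3%, against 3.61% of all clusters) and 1 below (3.45%, against 3.10%).

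The arrays numbered 3 differed from the others in both groups. Their medians over all clusters were 5.42 for LPS and 5.35 for saline, against 5.17 and 5.19 for LPS arrays 1 and 2 and 5.17 and 5.15 for saline arrays 1 and 2. Array 3 was above the mean of arrays 1 and 2 in both groups for 59 members (62.1%, against 55.5% of all clusters), and below in both for 15 (15.8%, against 18.1%). In 7 members (7.37%, against 11.2% of all clusters) it was over 0.5 log2 units above in both groups. These were Kcnip2, Kcnmb1, Kcnt2, Kcnk2, Kcnh4, Kcnk13 and Kcna7. For Kcnip2, a Kv4 partner, the offset was 0.82 in LPS and 1.01 in saline, while its difference between the groups was -0.03 ± 0.35. Kcna4, by its chosen cluster, had the opposite offset, -0.81 in LPS and -0.41 in saline. What the numbers stand for is not given in the labels.

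**Figure D4:**
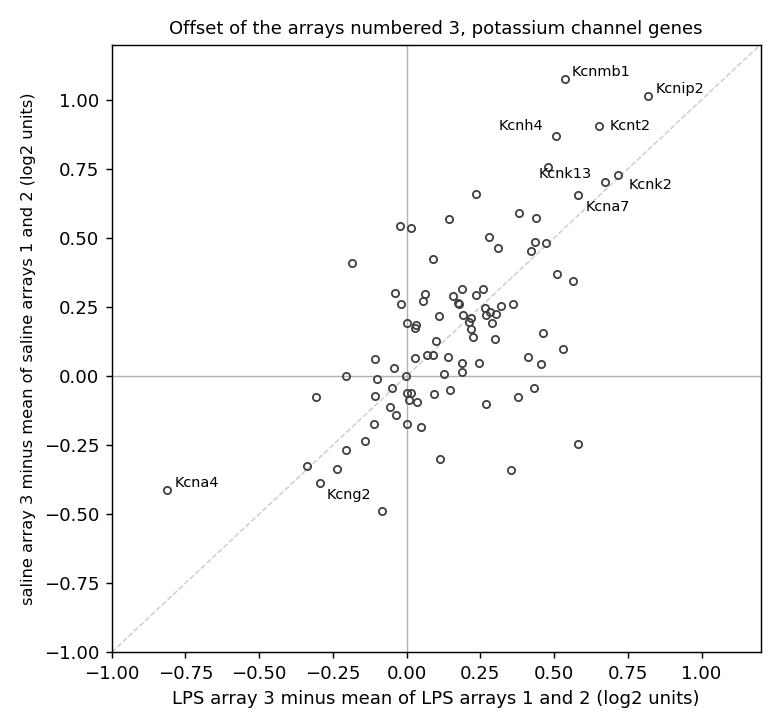
Offset of array 3 from the mean of arrays 1 and 2 (log2 units) for each of 95 members, LPS on the horizontal axis and saline on the vertical axis. Of the points, 59 lie in the upper right and 15 in the lower left, and the dashed line marks equal offsets.

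Marker genes showed RNA of several cell types on these arrays. Neuron markers had array medians of 10.8 to 11.1 in LPS and 10.8 to 11.0 in saline, and microglia markers 6.63 to 6.88 in LPS and 6.85 to 7.08 in saline. All 11 neuron, 12 microglia, 10 astrocyte and 11 oligodendrocyte markers measured lay above the median of all clusters. The same held for 9 of 10 endothelial and mural markers but for only 1 of 10 blood myeloid markers. No marker of any list passed the test at an adjusted p below 0.05. Astrocyte markers had positive differences in 8 of 10 (median 0.19, array medians 8.16 to 8.29 in LPS and 7.96 to 8.23 in saline), and blood myeloid markers in 8 of 10 (median 0.44, 4.22 to 5.03 in LPS and 3.66 to 4.23 in saline). Microglia markers had positive differences in 3 of 12 (median -0.19), neuron markers in 4 of 11 (median -0.02), oligodendrocyte markers in 3 of 11 (median -0.11), and endothelial and mural markers in 5 of 10 (median -0.01). Among microglia markers, Itgam, the gene for CD11b, differed by 0.35 ± 0.17 and P2ry12 by -1.24 ± 0.34. The part of any of these in the values of the channel genes was not tested. In such bulk RNA, fewer cells of a type and less RNA per cell cannot be told apart.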

How the data were processed

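The authors deposited log2 values per transcript cluster and array, made with RMA in Affymetrix Expression Console and followed by Transcriptome Analysis Console, per the submitters' processing notes (the console is version 3.0 per the design text). Neither the genome build nor the other versions are given in these sources. RMA subtracts background, equalises arrays and summarises probes, and compresses differences of dim clusters. The authors' deposited comparison table gave group averages in log2 units, a signed linear fold (a score here), and a p-value with its adjusted p-value per cluster. Each array was labelled from 100 ng of RNA, and the number of arrays limits the precision. The labels call the 3 pools of a group biological replicates.

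Differences are LPS minus saline, from a fit of limma 3.58.1 under R 4.3.3 with lmFit and eBayes, which had group as its only term, run over 34472 clusters, with Benjamini-Hochberg adjustment over all of them at a threshold of 0.05. The code of the fit was tried on simulated arrays with independent noise. These lacked the shared offset of the arrays numbered 3, so that run could not test its effect. Errors are limma's moderated SE or, where stated, the SD of 3 arrays. Of 95 chosen clusters, 93 matched exactly 1 RefSeq gene of the same symbol by accession.

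Members to be named were the 8 with the lowest p in each direction, the 8 with the highest mean signal, and 11 with known roles in microglia, astrocytes or vessels. Of the partners, the 2 with the lowest p in each direction were named. Members whose groups do not overlap or whose array 3 stands apart were named as well, after their values were seen. Some genes that these rules name are not reported here. The members, lists and rules were chosen with earlier results of these data known.

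Deviations from the group means correlated between arrays of the same number by 0.27, 0.12 and 0.56 over all clusters (numbers 1, 2 and 3). Each was above 0.1, so the numbers were used as pairs in the replicate block, which was run as an alternative. The main fit, which gave the SEs, intervals and p-values unless stated, did not pair the arrays. This pairing comes from the data alone. The group means include the arrays numbered 3, so their shared offset also enters the deviations of arrays 1 and 2. The correlations for numbers 1 and 2 therefore cannot show by themselves that those arrays belong in pairs. The other alternatives were array weights, an intensity trend, repeated quantile normalisation, centring, brighter clusters, all clusters of the value table, averaging the clusters of a symbol, the authors' deposited test, and leaving out each array or both arrays numbered 3. The second cluster of Kcnk15 was an alternative chosen after seeing the data.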

Additional observations from a re-analysis of the deposited data

How the results depend on the processing

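The count of members past the adjusted threshold was 0 under every alternative run, and 0 with the replicate block, which put 3 of all clusters past it. At an unadjusted p below 0.05 the block gave 1 higher and 3 lower members, against 1 and 1, and array weights gave 1 and 5 (4.54% and 3.71% of all clusters). Members with all LPS arrays above all saline arrays numbered 7 to 16 when 1 array was left out (5.95% to 12.9% of all clusters) and 17 without both arrays numbered 3 (main value 7). Members with all LPS arrays below numbered 9 to 17 when 1 array was left out (4.54% to 12.4% of all clusters), 19 without both arrays numbered 3, and 5 after quantile normalisation (3.86% of all clusters; main value 8). Fewer arrays make such separation more frequent by construction: without both arrays numbered 3 it was seen above in 16.0% and below in 17.9% of all clusters. The median member difference stayed between -0.06 and 0.04. Of 510 values of 32 named members under single alternatives, 480 kept their sign and 30 did not. Leaving out 1 array gave Kcnk15 -0.14 to 0.050, Kcnd2 -0.091 to 0.021, Kcnip3 -0.070 to 0.029, Kcnma1 -0.12 to 0.017, Kcnk13 -0.38 to 0.083, Kcnj2 -0.033 to 0.14, Kcnn4 -0.030 to 0.22, Kcnj10 -0.026 to 0.22, Kcnj16 -0.13 to 0.30, Kcnk1 -0.030 to 0.19 and Kcnj8 -0.0065 to 0.27. Kcnn4 was -0.045 without both arrays numbered 3 and -0.051 with array weights. After quantile normalisation Kcnk15 was 0.015, Kcnd2 0.0038 and Kcnip3 0.0023. Kcnk15 was 0.0060 with its clusters averaged and 0.041 by its other cluster. In the authors' deposited table Kcnj2 was -0.040, Kcnj10 -0.040 and Kcnk1 -0.060. Leaving out 1 array also moved members that kept their sign by over 1.5 times: Kcna1 0.18 to 0.44, Kcne2 0.14 to 0.38, Kcna5 0.014 to 0.32, Kcnab2 0.032 to 0.17, Kcnj9 -0.40 to -0.15, Kcnd1 -0.37 to -0.12, Kcna3 -0.25 to -0.083, Kcnq3 -0.18 to -0.016 and Kcnh3 -0.15 to -0.072. The cause of these changes was not tested.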
